A study of Homo sapiens with 5 samples.

Results

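The MYC, MAX and MXD network was described in RPE1 cells treated with doxorubicin. Its 10 members were chosen by gene symbol among the known proteins that pair with MAX or with the related protein MLX. The choice did not use their values, although earlier results of these data were known. MYCL, MLXIP and MLXIPL, of the extended network, are not members and are described apart. All 10 (MYC, MYCN, MAX, MXD1, MXD3, MXD4, MXI1, MNT, MLX and MGA) had a row in the count table of 26485 genes. Of these, 9 passed the filter on low counts and were tested among 14187 genes, while MYCN had 0 counts in every library.

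RPE1, an established epithelial cell line from the pigmented layer of the human retina, is labelled as wild type, and every library came from this 1 line. Poly-A RNA was sequenced from cells kept for 18 h with DMSO, the solvent control (2 libraries), with 0.2 µM doxorubicin (2 libraries) or with 0.34 µM doxorubicin (1 library). Doxorubicin is an anthracycline that intercalates into DNA and traps topoisomerase II on it. The study's methods call the libraries biological replicates, but the labels do not say that they came from separate cultures, so the p-values measure the spread between these libraries, which may in part be technical.

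The members are transcription factors of the basic helix-loop-helix leucine zipper type, which bind DNA as pairs. MYC and MYCN pair with MAX at the E-box sequence CACGTG and activate genes for growth and division. The MXD proteins (MXD1, MXD3, MXD4 and MXI1) and MNT compete with MYC for MAX at the same sequence and recruit SIN3 corepressors, and MGA pairs with MAX inside a Polycomb-type complex. MLX is a MAX-like partner for the glucose-sensing factors MLXIP and MLXIPL and can also pair with MXD1, MXD4 and MNT. The mRNA and the protein of MYC are both short-lived, so the MYC level can change quickly, and the amount of mRNA need not follow the amount of protein.

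Among the members, the clearest difference was a lower level of MXD3 mRNA in doxorubicin. MXD3, which unlike its relatives is known from dividing cells, fell 5.08-fold and was the only member past the threshold, an adjusted p of 0.01 by edgeR's quasi-likelihood test, which 4.02% of all genes tested passed. Its call was lost without any 1 of the 5 libraries. MXD4 and MXI1, which encode MAX-binding repressors, had higher mean levels in doxorubicin, 1.53-fold and 1.70-fold, but neither passed the threshold by edgeR, DESeq2 or limma voom. MYC, MXD1, MNT and MLX lay within 0.05 of no change on the log2 scale.

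The counts on genes summed to between 23773061 and 36725345 per library, and 3 counts, taken as the lowest countable level, corresponded to 0.0827 to 0.125 CPM (counts relative to library size, normalized by edgeR's TMM method). In some genes the second libraries of DMSO and of 0.2 µM doxorubicin stood apart from the other 3 libraries. Random order of the libraries alone would place them so in part of the genes. Both second libraries lay below the other 3 libraries in 14.2% of the genes tested and above them in 12.9%. Among the members this was so for MXI1 and MGA (both second libraries lowest) and for MXD1 and MNT (both highest). CDH5, a gene of endothelial cells, had 56 and 69 counts in these second libraries and 2, 4 and 5 in the others. PECAM1, the other endothelial gene among the markers, did not share this pattern. It had 6 and 11 counts in these second libraries and 3, 7 and 13 in the others. Of the markers of pigment epithelium, MITF (743 to 1503 counts), OTX2 (601 to 887) and the keratin genes KRT8 (8821 to 23990) and KRT18 (6076 to 16701) were measured in every library. RPE65, RLBP1, TYR and TYRP1, genes of mature pigment epithelium, had 0 to 8 counts. BEST1 (14 to 142 counts), PMEL (5 to 46) and SERPINF1 (4 to 29) were low. Of the 7 markers tested, 57.1% had every doxorubicin library above DMSO, beside 24.3% of all genes tested, and none passed the threshold by edgeR. DESeq2 called 1, KRT8 (adjusted p = 5.1e-09, DESeq2), higher, beside 14.9% of the genes it tested. Markers of other cell types summed to 0.420 to 2.78 CPM in DMSO and 1.47 to 5.74 CPM in doxorubicin over 7 genes, of which CD3E had 0 counts in every library. In these markers the smallest p was that of PTPRC, a leukocyte gene (5 and 7 counts in the DMSO libraries, 25, 53 and 72 in those of doxorubicin, adjusted p = 0.0212 by edgeR). DESeq2 called PTPRC higher (adjusted p = 0.000957, DESeq2), at these low counts.

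To place the members beside a known response, 4 genes were examined first. CDKN1A, the p53-induced inhibitor of cyclin-dependent kinases, rose by 3.39 on the log2 scale, and MDM2, which encodes the ubiquitin ligase of p53, rose by 2.19. MKI67, a marker of dividing cells, fell by 4.65, and TOP2A, the topoisomerase that doxorubicin poisons, fell by 2.75. All 4 passed the threshold in the pooled comparison (adjusted p from 0.000694 to 0.00246, quasi-likelihood test of edgeR, adjusted by Benjamini and Hochberg over all genes tested). Without the second DMSO library the adjusted p by edgeR was 0.0132 for CDKN1A and 0.0227 for MDM2, and without the first it was 0.0169 for MDM2.

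**Figure D1:**
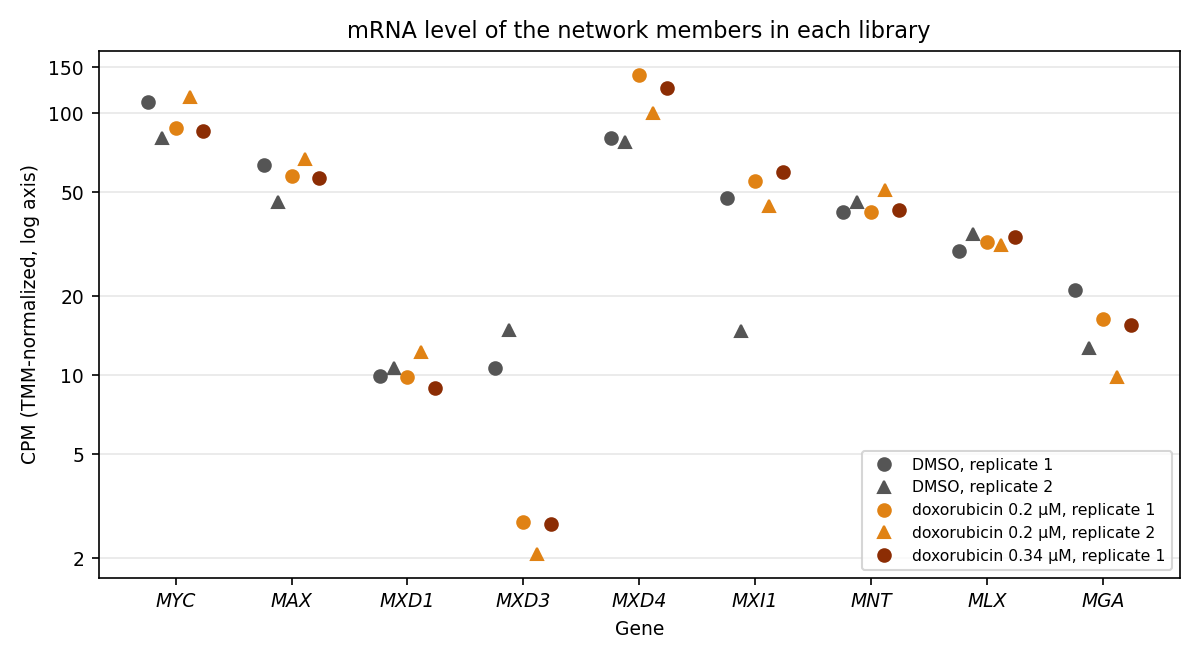
Level of the 9 members with counts in each of the 5 libraries, in TMM-normalized CPM on a log axis, with colour for the condition and circles and triangles for the first and second library of a condition. The 3 doxorubicin libraries of MXD3 lie between 2.08 and 2.75 CPM, below both DMSO libraries at 10.7 and 14.9 CPM, and the second DMSO library of MXI1 lies alone at 14.7 CPM.

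To compare the members with each other, CPM was divided by the length of all exons of a gene, in kilobases. By the median over the 5 libraries, MXD4 stood highest at 25.8 CPM per kb (range 20.1 to 36.2), followed by MYC at 16.4 (14.97 to 21.5), MAX at 14.1 (11.2 to 16.3), MLX at 12.5 (11.6 to 13.4), MXI1 at 10.2 (3.17 to 12.8) and MNT at 8.57 (8.47 to 10.2). Neighbours among these 6 overlapped in range. Within every library MXD4 lay above MYC, MYC above MAX and MLX above MXI1 by this measure. MXD4 and MYC were close in the first DMSO library (20.8 and 20.7). In CPM not divided by length, MYC lay above MXD4 in both DMSO libraries and in the second 0.2 µM library. There MXD4 lay above MYC in the first 0.2 µM and the 0.34 µM library. MXI1 lay above MLX in CPM in all libraries but the second of DMSO. The order of MXD4 and MYC, and of MLX and MXI1, thus rests on the exon lengths used. MAX and MLX, and likewise MXI1 and MNT, changed places between libraries, so the order within these pairs is not fixed by the data. A gap then followed to MXD1 at 1.68 CPM per kb (1.51 to 2.08), whose range did not reach that of MNT above it or that of MGA below it. MGA had 0.996 CPM per kb (0.629 to 1.35) and MXD3 0.943 (0.714 to 5.11), and these ranges overlapped.

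The place of MXD3 in this order depended on the treatment. In DMSO it had 3.67 and 5.11 CPM per kb, above MXD1 (1.68 and 1.80) in both libraries. In doxorubicin it had 0.943, 0.714 and 0.928 CPM per kb, below MXD1 (1.66, 2.08 and 1.51) in all 3 libraries.

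MYC (chromosome 8 of GRCh38, 127735434 to 127742951) overlaps no other annotated gene. Its level was 111 and 80.1 CPM in DMSO, 87.8 and 115 CPM in 0.2 µM doxorubicin and 85.7 CPM in 0.34 µM doxorubicin. The highest and the lowest of the 5 libraries were a 0.2 µM and a DMSO library, and the conditions overlapped. The means were 95.4 ± 21.7 CPM (SD, n = 2) in DMSO and 96.2 ± 16.5 CPM (SD, n = 3) in doxorubicin. The log2 fold change was 0.01 with a standard error of 0.21 (adjusted p = 0.978, edgeR). Its 95% interval ran from -0.49 to 0.51, so that levels of 0.714 to 1.42 times that of DMSO were within the error of these libraries. The direction changed with the library left out, from -0.22 without the second DMSO library to 0.25 without the first.

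MYCN (chromosome 2, 15940550 to 15947004), the MYC relative of neural tissue, had 0 counts in all 5 libraries, as had its antisense neighbour MYCNOS. This allows a level of up to 0.0827 to 0.125 CPM per library, depending on its depth. The third relative, MYCL, was low, at 11 and 1 counts in the DMSO libraries, 17 and 8 at 0.2 µM and 57 at 0.34 µM. Its log2 fold change of 1.90 carried a standard error of 0.98 and did not pass the test (adjusted p = 0.244, edgeR). Of the 3 activator genes, MYC was thus the 1 with substantial mRNA in these cells.

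MAX (chromosome 14, 65006101 to 65102695), the shared partner, had 63.5 and 45.9 CPM in DMSO, 57.7 and 66.8 CPM in 0.2 µM and 56.7 CPM in 0.34 µM doxorubicin. The second DMSO library was the lowest and the conditions overlapped (log2 fold change 0.14, standard error 0.19, adjusted p = 0.655, edgeR). Without the first DMSO library the value was 0.39 and without the second it was -0.090. The farnesyltransferase gene FNTB shares 58.5% of the span of MAX, but its own counts were 40 to 63 per library beside 1173 to 2058 for MAX.

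MXD3 (chromosome 5, 177305499 to 177312752) had 280 and 380 counts in the DMSO libraries, 71 and 50 in 0.2 µM and 98 in 0.34 µM doxorubicin. This corresponded to 10.7 and 14.9 CPM in DMSO, 2.75 and 2.08 CPM in 0.2 µM and 2.70 CPM in 0.34 µM doxorubicin. All 3 doxorubicin libraries lay below both DMSO libraries, and the 0.34 µM library lay between the 0.2 µM libraries. The mean fell from 12.8 ± 2.97 CPM (SD, n = 2) to 2.51 ± 0.373 CPM (SD, n = 3). On the log2 scale this was a change of -2.34 with a standard error of 0.26 and a 95% interval from -2.97 to -1.72 (adjusted p = 0.00336, edgeR), which ranked 239 among the 14187 genes by p. DESeq2 (adjusted p = 8.4e-12) and limma voom (adjusted p = 0.00394) also called it, and no other member.

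Each library counted for that call. The adjusted p of MXD3 by edgeR was 0.0105 without the first and 0.0221 without the second DMSO library, 0.0163 and 0.0151 without either 0.2 µM library and 0.0185 without the 0.34 µM library, all above the threshold of 0.01. The size stayed between -2.57 and -2.10 in these fits. The gene PRELID1 shares 1451 bases with MXD3 and had 928 to 1743 counts, more than MXD3 itself. PRELID1 had a log2 value of -0.54 (adjusted p = 0.130, edgeR), smaller than that of MXD3, and reads of PRELID1 counted for MXD3 were not tested. In bulk RNA, fewer cells in a stage of the cell cycle and less RNA per cell cannot be told apart.

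One called member of 9 tested stands beside 4.02% of all genes tested that passed the same threshold, 1.29% higher and 2.73% lower. DESeq2 called 14.9% and limma voom 3.71% of the genes they tested. At an unadjusted p under 0.05 edgeR had 2 members, MXD3 and MXD4, beside 30.8% of all genes tested. Among the members, 7 had a positive and 2 a negative log2 fold change, with a median of 0.01, the same as the median of all genes tested (0.01). By the levels of the single libraries, MXD3 (lower) and MXD4 (higher) were the 2 members whose conditions did not overlap. Such separation was common, since 47.7% of all genes tested showed it, 24.3% higher and 23.4% lower in doxorubicin.

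MXD4 (chromosome 4, 2247432 to 2262109), usually found in resting and differentiating cells, had 80.7 and 77.9 CPM in DMSO. In 0.2 µM doxorubicin it had 140.2 and 99.9 CPM, and in 0.34 µM doxorubicin 125 CPM. All 3 doxorubicin libraries lay above both DMSO libraries, with the second 0.2 µM library closest to them. The means were 79.3 ± 1.96 CPM (SD, n = 2) and 122 ± 20.3 CPM (SD, n = 3), a log2 difference of 0.62 with a standard error of 0.18 and a 95% interval from 0.19 to 1.05. Its adjusted p was 0.0675 by edgeR and 0.0195 by DESeq2, so MXD4 did not pass the threshold with either tool. Without 1 library the adjusted p by edgeR ran from 0.0348 (without the second 0.2 µM library) to 0.239 (without the 0.34 µM library).

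Within a library the ratio of MXD3 to MXD4 counts does not depend on the scaling between libraries. It was 0.132 and 0.191 in DMSO, 0.0196 and 0.0208 in 0.2 µM and 0.0217 in 0.34 µM doxorubicin. The doxorubicin libraries lay close together and below both DMSO libraries. The levels of MXD3 and MXD4 already separated the conditions in opposite directions. The separation of their ratio follows from that and is no further support. The ratio of MYC to MXD4 counts was 1.37 and 1.03 in DMSO and 0.626, 1.15 and 0.688 in doxorubicin, and here the conditions overlapped in the second 0.2 µM library. The ratio of MYC to MAX counts was 1.74 in both DMSO libraries and 1.52, 1.72 and 1.51 in doxorubicin, so that the second 0.2 µM library was again closest to DMSO.

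MXI1 (chromosome 10, 110207605 to 110287365), a further MAX-binding repressor, varied more between the DMSO libraries than between the treatments. Its level was 47.5 and 14.7 CPM in DMSO, 55.1 and 44.4 CPM in 0.2 µM and 59.4 CPM in 0.34 µM doxorubicin. The second DMSO library stood alone at the bottom, and the first DMSO library lay among the treated ones. The log2 fold change of 0.77 had a standard error of 0.45 and a 95% interval from -0.31 to 1.84 (adjusted p = 0.304, edgeR). It was 0.14 (adjusted p = 0.696) without the second DMSO library and 1.84 (adjusted p = 0.0180) without the first, so 1 library decided its size.

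MXI1 is also known as a gene induced by low oxygen, and for this reason 13 other hypoxia-induced genes were examined after its values were seen. Of the 12 tested, 8 had both second libraries at the bottom, which is 66.7% beside 14.2% of all genes tested. Of these 8, PDK1 and P4HA1 were chosen as examples after their values were seen. PDK1, a kinase that holds back pyruvate oxidation, had 31.9, 29.1 and 28.8 CPM in the first DMSO, first 0.2 µM and 0.34 µM libraries and 14.5 and 14.4 CPM in the second libraries. P4HA1, a collagen prolyl hydroxylase, had 151, 141 and 131 CPM and in the second libraries 69.1 and 67.6 CPM. The list summed to 1156 to 1351 CPM in DMSO and 1389.9 to 1975 CPM in doxorubicin, and all 12 genes tested had positive log2 fold changes (median 0.35). None passed the threshold by edgeR or limma voom. At an unadjusted p under 0.05 edgeR had 4, beside 30.8% of all genes tested. DESeq2 called 3 (PFKFB4, NDRG1 and SLC2A1), beside 14.9% of the genes it tested. In 4 of the 12 (SLC2A1, PFKFB4, ANKRD37 and NDRG1), or 33.3% beside 24.3% of all genes tested, every doxorubicin library lay above DMSO. The smallest p was that of PFKFB4, a regulator of glycolysis, with 19.6 and 19.4 CPM in DMSO and 34.3, 33.8 and 37.4 CPM in doxorubicin (log2 fold change 0.85, adjusted p = 0.0161, edgeR). The part of oxygen supply in the MXI1 values was not tested.

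MXD1 and MNT differed little between the libraries. MXD1 (chromosome 2, 69915109 to 69942945) had 9.92 and 10.7 CPM in DMSO, 9.82 and 12.3 CPM in 0.2 µM and 8.90 CPM in 0.34 µM doxorubicin (log2 fold change 0.00, standard error 0.22, adjusted p = 0.992, edgeR). MNT (chromosome 17, 2384073 to 2401060), the MAX partner present in most cell types, had 42.1 and 45.7 CPM in DMSO, 42.1 and 50.9 CPM in 0.2 µM and 42.6 CPM in 0.34 µM doxorubicin. In both genes the second 0.2 µM library was the highest of the 5 and the conditions overlapped. The log2 fold change of MNT was 0.04, with a 95% interval from -0.34 to 0.42 (adjusted p = 0.886, edgeR), and that of MXD1 had an interval from -0.52 to 0.53.

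MLX (chromosome 17, 42567100 to 42573203) was the steadiest member, with its highest library 1.16 times its lowest. It had 29.9 and 34.6 CPM in DMSO, 32.3 and 31.4 CPM in 0.2 µM and 33.6 CPM in 0.34 µM doxorubicin. The conditions overlapped, and the log2 fold change was 0.01 with a 95% interval from -0.36 to 0.38 (adjusted p = 0.9749, edgeR). PSMC3IP, a recombination gene that shares 894 bases with MLX, fell by 2.63 on the log2 scale (adjusted p = 0.00599, edgeR), from 296 and 298 counts in DMSO to 60, 52 and 40 after doxorubicin, beside 756 to 1221 counts of MLX. No source used here gives the strand setting of the counting, and an exchange of reads between the neighbours was not tested.

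MGA (chromosome 15, 41621224 to 41769940) had 21.1 and 12.7 CPM in DMSO, 16.4 and 9.81 CPM in 0.2 µM and 15.5 CPM in 0.34 µM doxorubicin. Both second libraries were lowest, and within each of DMSO and 0.2 µM the difference between the libraries was larger than that between the conditions. The log2 fold change of -0.28 had a 95% interval from -1.02 to 0.46 (adjusted p = 0.589, edgeR). Leaving out the first DMSO library gave 0.12 and leaving out the second gave -0.61.

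**Figure D2:**
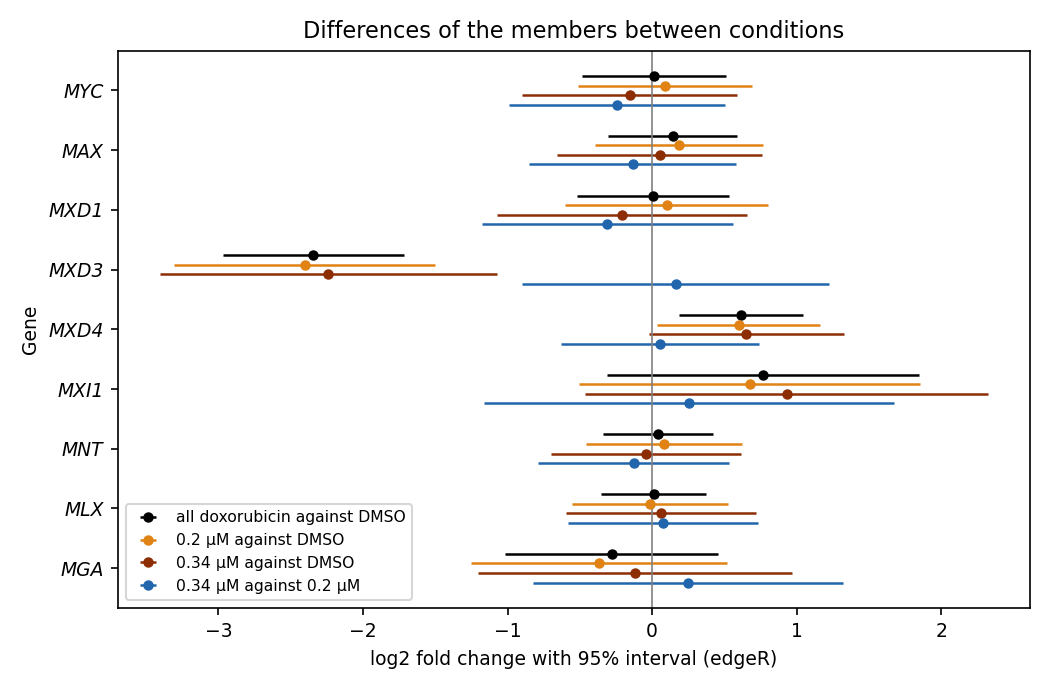
Log2 fold change of the 9 members tested with 95% intervals, from edgeR fits over all genes, for doxorubicin against DMSO, each dose against DMSO and 0.34 µM against 0.2 µM. MXD3 lies at -2.34 for all doxorubicin libraries and its intervals against DMSO do not reach 0, while the intervals of all members between the doses span 0.

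To ask whether the doses differed, the 0.34 µM library was compared with the 0.2 µM libraries in a fit of 3 conditions. The lone 0.34 µM library was assumed to vary like the other libraries. No gene passed the threshold by edgeR (0% of 14187 tested, with 22 at an unadjusted p under 0.05), and neither DESeq2 nor limma voom called one. The differences of the members lay between -0.31 for MXD1 and 0.26 for MXI1, with a lowest unadjusted p of 0.425. For MXD3 the difference was 0.16 with an interval from -0.90 to 1.23, and for MYC it was -0.24 with an interval from -0.99 to 0.50. With 1 library at the higher dose these intervals are wide, and differences within them could not be detected.

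Taken dose by dose against DMSO, the log2 fold change of MXD3 was -2.40 at 0.2 µM (adjusted p = 0.0196, edgeR) and -2.24 at 0.34 µM (adjusted p = 0.0678, edgeR). MXD4 had 0.60 and 0.65, MXI1 0.68 and 0.93, and MYC 0.09 and -0.16, none of them past the threshold by edgeR. These comparisons share the DMSO libraries. At 0.2 µM 1.21% and at 0.34 µM 0.627% of all genes tested passed, which is fewer than in the pooled comparison.

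The genes most like MXD3 over the 5 libraries, by the root mean square difference of log2 CPM centred on each gene's mean, were GSG2 (0.0853), POLD3 (0.107) and PAQR4 (0.124). GSG2, the older symbol of the histone H3 kinase haspin, changed by -2.32 on the log2 scale (adjusted p = 0.00529, edgeR). POLD3, a subunit of DNA polymerase delta, had -2.29 (adjusted p = 0.00110, edgeR), and PAQR4 had -2.19 (adjusted p = 0.00320, edgeR). For MYC, whose profile was nearly flat, the nearest were TMED7 (0.0366), RPS24 (0.0383) and PIPSL (0.0390), with log2 fold changes of 0.05, 0.02 and 0.01. PIPSL is a retrogene, and its reads cannot be separated from those of its source genes where they are near-identical.

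**Figure D3:**
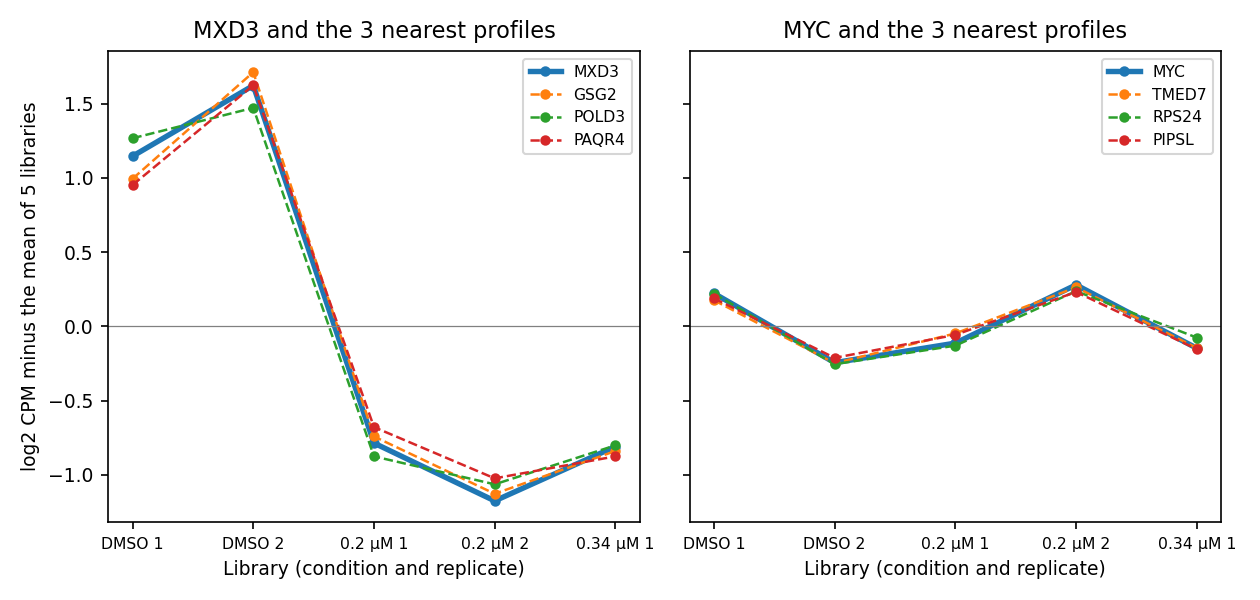
Log2 CPM of MXD3 and of MYC, each minus the gene's mean over the 5 libraries, with the 3 genes whose profiles differ least from each. MXD3, GSG2, POLD3 and PAQR4 drop between the DMSO and the doxorubicin libraries, and MYC and its 3 nearest genes stay close to their means.

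Promoters were examined for the E-box that the network binds. The letters CACGTG, which read the same on both strands, were searched in the 250 bases before the RefSeq start (GRCh38.p14) of 9 members. The promoter of MYC was not analysed here. The letters were present in 3 of these 9 promoters, those of MXD4 (238 bases before the start), MNT (193 bases) and MLX (50 bases). The share was 6.49% of 27305 promoters in the table and 8.70% of the 10362 whose genes were tested. None of the 3 genes passed the threshold by edgeR or DESeq2. The whole window of MXD4 and 30 bases around the match of MNT and MLX are shown to let the flanks of the E-box be compared, with CACGTG in capitals.

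MXD4 promoter, chr4:2262110-2262359, minus strand: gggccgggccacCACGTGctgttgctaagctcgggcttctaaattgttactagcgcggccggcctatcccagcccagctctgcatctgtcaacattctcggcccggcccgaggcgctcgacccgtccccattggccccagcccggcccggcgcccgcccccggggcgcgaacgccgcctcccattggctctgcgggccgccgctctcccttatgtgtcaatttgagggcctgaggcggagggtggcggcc
MNT E-box, chr17:2401236-2401265, minus strand: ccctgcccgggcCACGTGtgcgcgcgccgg
MLX E-box, chr17:42567038-42567067, plus strand: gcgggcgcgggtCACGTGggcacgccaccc

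The promoter of MXD3, the member that fell, is shown in full. It held neither CACGTG nor the letters GCGGGAA (a core of E2F sites) or TTTGAA (a core of the cell cycle element CHR), both searched on either strand. GCGGGAA stood in 5.59% of all promoters, 8.69% of those of genes tested and 55 of the 321 of genes called lower. TTTGAA stood in 13.6% of all promoters, 8.44% of those of genes tested and 77 of the 321 of genes called lower.

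MXD3 promoter, chr5:177312753-177313002, minus strand: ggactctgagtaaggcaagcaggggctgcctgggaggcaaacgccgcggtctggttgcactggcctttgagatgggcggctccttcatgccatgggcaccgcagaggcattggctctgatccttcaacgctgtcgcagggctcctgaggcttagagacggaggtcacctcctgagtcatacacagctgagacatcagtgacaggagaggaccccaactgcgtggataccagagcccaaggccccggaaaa

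The first bases after the RefSeq start of MXD3 were present in 1 of its 9 annotated GENCODE transcripts, and which start RPE1 cells use was not tested. Those of MXD4 were present in 1 of 5 transcripts, those of MNT in 2 of 9 and those of MLX in 6 of 11. A transcript that holds these bases need not start at them. The match says only which letters stand in these windows.

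The partners of the network were described as lists, by their counts and medians. The median log2 fold change of all genes tested was 0.01 in this comparison. The corepressors that MXD proteins and MNT recruit (SIN3 and NCOR complexes) had 13 tested genes, of which 12 had negative log2 fold changes, and the median was -0.40. By edgeR 1 passed the threshold, which is 7.69% beside 4.02% of all genes tested. By DESeq2 4 did (RBBP7, SIN3A, SAP30 and ING1), all lower, beside 14.9% of the genes it tested in either direction. The gene that passed by edgeR was RBBP7, a histone-binding subunit, which had 172 and 196 CPM in DMSO and 93.3, 87.0 and 84.5 CPM in doxorubicin. The change of RBBP7 was -1.06 on the log2 scale, with a standard error of 0.14 (adjusted p = 0.00581, edgeR). In this list 61.5% of the genes were lower in all doxorubicin libraries, where 23.4% of all genes tested were.

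The complex of MGA, a Polycomb repressive complex of the type PRC1.6, had 11 tested genes besides MGA, 9 with negative log2 fold changes and a median of -0.54. DESeq2 called 2 of them lower, beside 14.9% of the genes it tested in either direction. By edgeR 1 was called lower, which is 9.09% beside 4.02% of all genes tested. This was CBX1, a heterochromatin protein of the HP1 family, with 226 and 173 CPM in DMSO and 92.1, 90.0 and 84.1 CPM in doxorubicin (log2 fold change -1.17, standard error 0.16, adjusted p = 0.00690, edgeR). Without any 1 of the 5 libraries neither RBBP7 nor CBX1 passed (adjusted p up to 0.0476 and 0.0422).

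The cofactors of MYC had 16 tested genes, 13 of them with negative log2 fold changes, and a median of -0.34. None passed the threshold by edgeR, beside 4.02% of all genes tested. By edgeR 5 of the 16 had an unadjusted p under 0.05, beside 30.8% of all genes tested. DESeq2 called 2, beside 14.9% of the genes it tested. The smallest p was that of ACTL6A, an actin-like subunit of chromatin remodellers, with 45.5 and 69.8 CPM in DMSO and 28.4, 29.6 and 27.9 CPM in doxorubicin (log2 fold change -1.01, adjusted p = 0.0235, edgeR).

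Of 21 genes for the turnover of the MYC protein, 2 fell and 1 rose by edgeR, which is 14.3% called beside 4.02% of all genes tested. DESeq2 called 7 lower and 3 higher, beside 14.9% of the genes it tested, and edgeR with no filter on low counts 3 lower and 3 higher. The doxorubicin libraries did not overlap DMSO in 16 of the 21, beside 47.7% of all genes tested. AURKA, a mitotic kinase that shields MYC family proteins from degradation, had 101 and 125 CPM in DMSO and 7.54, 11.6 and 7.66 CPM in doxorubicin (log2 fold change -3.66, standard error 0.24, adjusted p = 0.000747, edgeR). KIAA1524, the older symbol of CIP2A, an inhibitor of the phosphatase that destabilizes MYC, had 59.9 and 72.6 CPM in DMSO and 10.4, 14.7 and 8.35 CPM in doxorubicin, a log2 fold change of -2.57 (adjusted p = 0.00224, edgeR). TRIM32, a ubiquitin ligase with MYC among its substrates, rose by 0.95 on the log2 scale, from 42.6 and 43.6 CPM to 81.2, 80.7 and 88.3 CPM (adjusted p = 0.00789, edgeR). In these 3 genes no doxorubicin library overlapped DMSO.

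Both genes that fell in this list are also known from mitosis or dividing cells. AURKA kept its call in 4 of 5 fits without 1 library and lost it without the second DMSO library (adjusted p = 0.0102, edgeR). KIAA1524 kept it without the second 0.2 µM library or without the 0.34 µM library, with adjusted p up to 0.0198 (edgeR) in the others, and TRIM32 lost it without any 1 library (up to 0.0599). FBXO32, FBXW7 and SKP2, substrate receptors of ubiquitin ligases, were chosen after their values were seen. FBXO32 had 286 and 140.1 CPM in DMSO and 806, 855 and 900.4 CPM in doxorubicin (log2 fold change 2.00, adjusted p = 0.0107, edgeR). FBXW7 had 14.7 and 11.99 CPM in DMSO and 26.8, 31.1 and 29.8 CPM in doxorubicin (adjusted p = 0.0110, edgeR), and SKP2 had 18.3 and 30.0 CPM in DMSO and 10.6, 10.2 and 10.1 CPM in doxorubicin (adjusted p = 0.0202, edgeR). The log2 fold changes of FBXW7 and SKP2 were 1.13 and -1.23. None of the 3 passed the threshold by edgeR, and all 3 passed it by DESeq2.

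**Figure D4:**
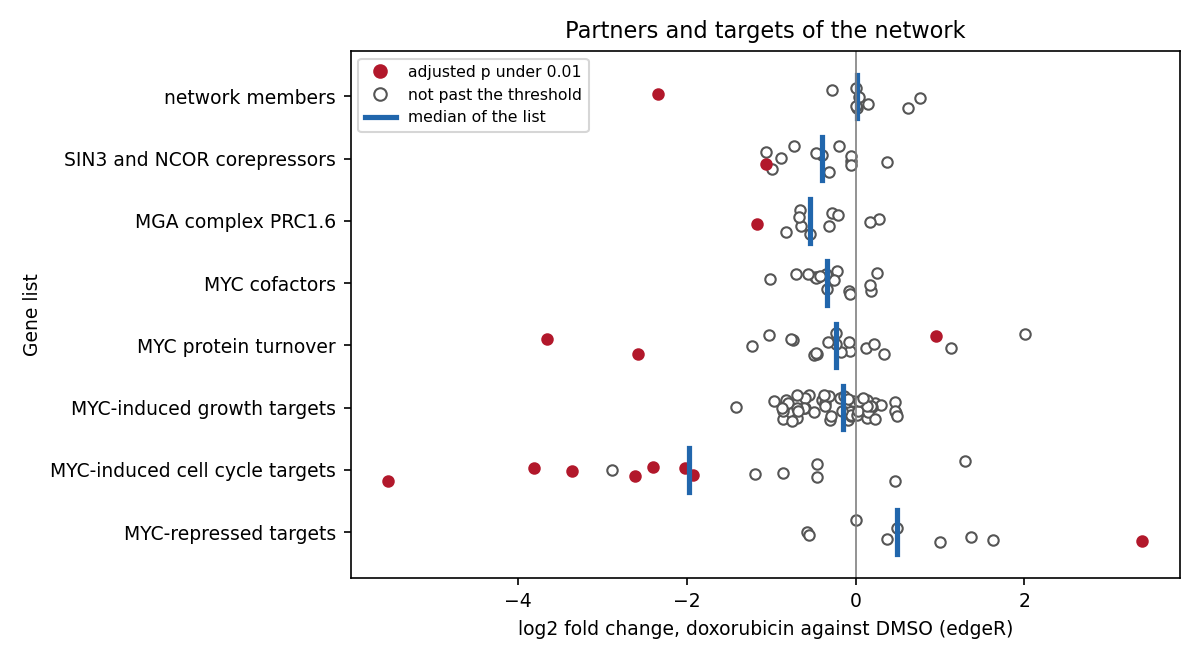
Log2 fold change, doxorubicin against DMSO by edgeR, of the members and of 7 lists of partners and targets, 1 point per gene tested, filled where the adjusted p was under 0.01, with a bar at the median of the list. The growth targets spread around a median of -0.15 with no filled point, and the cell cycle targets have a median of -1.97 and 7 filled points.

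The target genes of MYC were compared with MYC itself. A list of MYC-induced growth genes (ribosome assembly, nucleotide synthesis and metabolism) had 54 tested genes, 35 with negative and 19 with positive log2 fold changes. The median was -0.15, and none passed the threshold by edgeR, beside 4.02% of all genes tested. At an unadjusted p under 0.05 by edgeR, 16 were lower and 1 higher, beside 30.8% of all genes tested in either direction. DESeq2 called 6 of the 54, beside 14.9% of the genes it tested, and edgeR with no filter on low counts 3. Every growth gene called in either fit was lower. In 29.6% of them all doxorubicin libraries lay below DMSO, beside 23.4% of all genes tested. The list summed to 8553 to 8832 CPM in DMSO and 5725 to 6840 CPM in doxorubicin. A large part of this sum came from LDHA, NCL and NPM1, its most abundant genes. Their means were 2296, 1144 and 1118 CPM in DMSO and 1366, 643 and 762 CPM in doxorubicin. The sum therefore does not describe the typical gene of the list. Both second libraries were the highest in 27 of the 54 genes, where 12.9% of all genes tested showed this. PAICS, an enzyme of purine synthesis, came closest, with 286 and 326 CPM in DMSO and 104, 148 and 92.7 CPM in doxorubicin (log2 fold change -1.41, adjusted p = 0.0104, edgeR).

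The E-box stood in 26.7% of the 45 promoters found for the growth genes, beside 8.70% of the promoters of all genes tested. The list was compiled from known targets of MYC.

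Of 14 MYC-induced cell cycle genes, 7 fell by edgeR and none rose, beside 4.02% of all genes tested called in either direction. The median was -1.97, and DESeq2 called 10, all lower, beside 14.9% of the genes it tested in either direction. In 78.6% of the list every doxorubicin library lay below DMSO, beside 23.4% of all genes tested. PLK1, a mitotic kinase, went from 208 and 189.8 CPM in DMSO to 4.601, 4.45 and 3.83 CPM in doxorubicin, a log2 fold change of -5.53. PLK4, the kinase of centriole duplication, changed by -3.36 (adjusted p = 0.00211, edgeR). E2F1 and E2F2, transcription factors of the entry into S phase, changed by -2.62 and -3.81 (adjusted p = 0.00772 and 0.00827, edgeR). The fall of E2F2 was from 5.99 and 17.2 CPM to between 0.551 and 1.29 CPM, and that of E2F1 from 18.9 and 42.4 CPM to between 3.94 and 6.28 CPM. These genes belong to the general cell cycle program as well as to the targets of MYC. The count of 7 became 6 without the first DMSO library, 1 without the second DMSO library and 2 without any other library.

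Of the MYC-repressed genes, 9 were tested, 7 with positive log2 fold changes and a median of 0.50. In 5 of them, or 55.6% beside 24.3% of all genes tested, every doxorubicin library lay above DMSO. DESeq2 called 4 higher (CDKN1A, GADD45A, NDRG1 and THBS1), beside 14.9% of the genes it tested in either direction. By edgeR 1 was called higher, which is 11.1% beside 4.02% of all genes tested. That gene was CDKN1A, from 295 and 258 CPM in DMSO to 2975, 2366 and 3358 CPM in doxorubicin, and it is also a target of p53. The count of 1 became 2 without the first DMSO library and 0 without the second. GAS1 and CEBPA did not pass the filter on low counts.

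The MLX branch was measured by its partners and targets. MLXIP had 96.5 and 67.7 CPM in DMSO and 88.9, 54.7 and 84.8 CPM in doxorubicin (log2 fold change -0.11, adjusted p = 0.817, edgeR), while MLXIPL did not pass the filter, having 0 and 1 counts in the DMSO libraries and 6, 36 and 5 after doxorubicin. TXNIP, an inhibitor of glucose uptake and the best-known target of MLXIP, had 58.9 and 26.2 CPM in DMSO and 49.7, 20.8 and 40.4 CPM in doxorubicin (log2 fold change -0.20, adjusted p = 0.7995, edgeR). ARRDC4, its arrestin relative, had 6.56 and 0.940 CPM in DMSO and 4.37, 0.832 and 4.11 CPM in doxorubicin (log2 fold change -0.27, adjusted p = 0.870, edgeR). In MLXIP, TXNIP and ARRDC4 the second libraries of both conditions were the lowest of the 5, so the libraries of a condition differed more than the conditions did.

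Transcripts beside or named after MYC were also examined. PVT1, the long noncoding RNA next to MYC, had 7.48 and 4.74 CPM in DMSO and 10.8, 12.3 and 9.09 CPM in doxorubicin. All 3 doxorubicin libraries lay above DMSO, but the log2 fold change of 0.81 did not pass the threshold (standard error 0.28, adjusted p = 0.103, edgeR). MYCBP2, a large ubiquitin ligase that binds MYC, had 81.1 and 77.0 CPM in DMSO and 61.5, 53.6 and 56.7 CPM in doxorubicin (log2 fold change -0.47, adjusted p = 0.0693, edgeR). CASC11 had 1 to 5 counts and MYCBP 0 to 3. The span of MYCBP lies wholly inside that of the read-through gene GJA9-MYCBP.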

How the data were processed

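RNA-seq was measured in 5 libraries of RPE1 cells (2 DMSO, 2 at 0.2 µM and 1 at 0.34 µM doxorubicin, 18 h). A treatment text in the labels gives much higher doses, and so does the cell culture section of the study's methods. The doses of the titles are used, which the RNA-seq section of the methods and the study's results share. The authors mapped paired-end reads to hg38 with STAR, counted them per gene with featureCounts of Rsubread on the iGenomes annotation and deposited raw counts. The kit is described as stranded. For versions, strand setting and multi-mapped reads, the sources used here give nothing. A deposited table of the authors' own DESeq2 comparison (mean signal, log2 fold change, score and p-value columns) was not used.

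Counts were tested in R 4.3.3 with edgeR 4.0.16 (quasi-likelihood test, TMM, filterByExpr with a minimum count of 10 and total of 15, Benjamini-Hochberg adjustment over 14187 genes, threshold 0.01). The 3 doxorubicin libraries were pooled against DMSO, as in the study, and the doses were contrasted in a fit of 3 conditions. DESeq2 1.42.0, limma voom (limma 3.58.1), RLE or total-count scaling, no filter, a threshold of 0.05, single doses and each library left out were the alternatives. Standard errors are the log2 fold change over the square root of F. A prior count of 2 was added for log2 CPM. The procedure was tested on simulated data. Total counts were 23773061 to 36725345, and the limit of 3 counts covers counting error only. Chi-square per degree of freedom between libraries of a condition was 117 and 75.3, so none was a copy.

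The members and lists were chosen with earlier results of these data known, and lists came from general knowledge. Named genes are all members, the genes of a list past the threshold (at most 4, those with the largest change), otherwise that with the smallest p, all genes of lists of up to 5, and the 3 nearest profiles of MYC and of called members. CDH5, PECAM1, LDHA, NCL, NPM1, FBXO32, FBXW7, SKP2, the hypoxia-induced genes and the genes named as called by DESeq2 alone fall outside this rule. They were chosen after their values were seen. Exon lengths came from GENCODE transcripts and are approximate. Coordinates and promoters are RefSeq's on GRCh38.p14.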

Additional observations from a re-analysis of the deposited data

How the results depend on the processing

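MXD3 stayed lower under every alternative run. Its log2 fold change lay between -2.57 and -2.10, and it passed the threshold with DESeq2, limma voom, RLE scaling, total counts only and no filter. It did not pass at 0.2 µM or 0.34 µM alone, where 0 members were called, or without any 1 library (0 to 0 members called). MXD4 stayed between 0.51 and 0.74 and MXI1 between 0.14 and 1.84. Genes called over the whole table were 571 (183 higher, 388 lower), and 2073 (935 and 1138) with DESeq2, 1020 with no filter, 1927 at a threshold of 0.05, 171 at 0.2 µM alone, 89 at 0.34 µM alone and 49 to 215 without 1 library (49 without the second DMSO library). Between the doses 0 genes and 0 members were called in every alternative run.

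Values near 0 changed sign. With total counts only, MYC had -0.0080, MXD1 -0.024 and MLX -0.023. MXD1 had -0.0039 with DESeq2, -0.021 with limma voom and -0.0027 with RLE scaling. At 0.34 µM alone MYC had -0.16, MXD1 -0.21 and MNT -0.043, and at 0.2 µM alone MLX had -0.016. Without 1 library the values ran from -0.22 to 0.25 for MYC, -0.090 to 0.39 for MAX, -0.13 to 0.10 for MXD1, -0.048 to 0.094 for MNT, -0.098 to 0.10 for MLX and -0.61 to 0.12 for MGA. Of 126 recomputed log2 fold changes of members, 99 kept direction and side of the threshold. Of 196 recomputed counts of genes called per list 59 moved by over 1.5 times, and 20 of 196 medians moved beyond the spread between libraries. The cause was not tested.

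The labels number only the second libraries of DMSO and of 0.2 µM, and no source says that the number marks a shared culture or day. Over 14187 genes, the differences of the second from the first library in the pairs of DMSO and 0.2 µM had a correlation of 0.53. With a replicate block for these second libraries, added after the data were seen, 1546 genes were called. Among the members this was MXD3 alone (adjusted p = 0.00149, edgeR), while MXD4 had 0.0308, MXI1 0.0832 and MGA 0.0831. With 2 and 3 libraries, and 1 at the higher dose, changes of the size of the intervals given for MYC and MAX could not be detected.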

Other observations

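EIF4A1, an abundant translation factor of the growth list, was listed with 0 counts in every library. Its span lies wholly inside that of the read-through gene SENP3-EIF4A1, as that of MYCBP lies inside GJA9-MYCBP, and neither gene is described from these counts.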
